A study of Mus musculus with 3 samples.

Results

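The matrix metalloproteinases (Mmp), the disintegrin and metalloproteinases (Adam), the related proteins with thrombospondin repeats (Adamts) and their inhibitors (Timp1 to Timp4 and Reck) were read across cardiac cells in 3 single-cell RNA libraries. Members were all genes in the deposited tables whose symbol is Mmp, Adam or Adamts followed by a number, together with the 4 Timp genes and Reck. This gave 73 of 30360 genes, namely 22 Mmp, 27 Adam and 19 Adamts genes and 5 inhibitors. Cells came from left ventricles of C56Bl6 mice, and each library pooled 4 samples. HFpEF-FoxO1-sh and HFpEF-scr mice received a diet with high fat and the nitric oxide synthase inhibitor L-NAME for 6 weeks, a model of heart failure with preserved ejection fraction (HFpEF). For 4 weeks they also carried an adeno-associated virus (AAV), with a short hairpin against FoxO1 in HFpEF-FoxO1-sh and with a scrambled hairpin in HFpEF-scr. Control mice ate a standard diet for 10 weeks, and their label names no vector, so diet and vector differ together between HFpEF-scr and Control. The labels do not give the promoter or the cells that the vectors reach, and a 70 µm strainer was used against cardiomyocytes, of which 164, 30 and 40 cells were still found in HFpEF-FoxO1-sh, HFpEF-scr and Control.

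Matrix metalloproteinases are zinc enzymes that cut collagens, proteoglycans, elastin and other proteins outside the cell, and most are made as inactive precursors. Membrane-bound ADAM proteinases release the outer parts of membrane proteins such as growth factor precursors, cytokines and Notch receptors. ADAMTS enzymes are secreted, and several trim procollagens or cut the proteoglycans versican and aggrecan. The Timp proteins bind the active site of these enzymes, while Reck is a membrane-anchored inhibitor. In the heart, the balance of these enzymes and inhibitors is known for its part in matrix turnover and fibrosis.

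The 3 libraries held 27453, 36179 and 33022 cell barcodes in HFpEF-FoxO1-sh, HFpEF-scr and Control, with 144561934, 154385813 and 146230530 UMIs (unique molecular identifiers, each standing for 1 captured RNA molecule). After filters on UMIs, genes, mitochondrial UMIs and doublets, 16854, 14567 and 12757 cells were kept, with a median of 6520 to 6889 UMIs per cell. The libraries differed in quality, since 31.2% of barcodes in HFpEF-FoxO1-sh were over the limit of 20% mitochondrial UMIs, against 53.8% in HFpEF-scr and 56.9% in Control. Of all deposited barcodes, 238 to 335 occurred in both libraries of a pair. Foxo1 itself had 59.7 CPM in HFpEF-FoxO1-sh, 56.2 CPM in HFpEF-scr and 61.1 CPM in Control over all kept cells, where CPM is a gene's UMIs divided by the summed UMIs of the same cells, times 1e6. HFpEF-FoxO1-sh over HFpEF-scr gave a ratio of 1.06 (95% interval 1.03 to 1.10), so the level was not lower, and that sample is called by its label.

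Clustering gave 30 groups of cells, and 28 of these could be assigned to 16 classes through marker genes. Each name is short for a likeness to that class (fibroblast-like and so on), and the members took no part in the clustering or in the names. Fibroblasts numbered 10668 cells in HFpEF-FoxO1-sh, 9330 in HFpEF-scr and 8481 in Control. Macrophages (2039, 1627 and 1176 cells), endothelial cells (532, 648 and 449) and smooth muscle cells (366, 379 and 412) were compared as well. Each group is a single library, so differences are between libraries, have no check against replicates and carry no p-value, and the intervals cover counting error only.

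Of the 73 members, 49 had at least 100 UMIs over all kept cells, 14 had 1 to 99 UMIs and 10 had none. Those with none were Mmp1b, Mmp7 and Mmp20 and the Adam genes Adam7, Adam20, Adam24, Adam25, Adam29, Adam34 and Adam39. A count of 0 allows a level of up to 0.0253 CPM in HFpEF-FoxO1-sh, 0.0290 CPM in HFpEF-scr and 0.0312 CPM in Control. Low members were Adam2, Adam3, Adam18, Adam21, Adam28, Adam32, Mmp10, Mmp21, Mmp24, Mmp25, Adamts13, Adamts16, Adamts17 and Adamts18. At the other end, 17 members had at least 10000 UMIs, among them Timp3 (294904 UMIs), Timp2 (273281), Adamts5 (215261) and Mmp2 (120649).

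By GENCODE positions on mm10, the members whose values recur most are spread over the genome. Mmp2 (ENSMUSG00000031740) lies on the plus strand of chromosome 8 at 92827291 to 92853420, and Mmp9 (ENSMUSG00000017737) on the plus strand of chromosome 2 at 164940780 to 164955850. Adamts15 (ENSMUSG00000033453) lies on the minus strand of chromosome 9 at 30899155 to 30922452, away from the Mmp genes of that chromosome. Timp1 (ENSMUSG00000001131) lies on the plus strand of chromosome X at 20870166 to 20874735, where it overlaps Syn1 on the other strand, as Timp3 overlaps Syn3 and Timp4 overlaps Syn2.

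A compact group of Mmp genes illustrates how different the expressing cells were. On mouse chromosome 9 (mm10), 9 members lie side by side between positions 7272514 and 7699585, a stretch of 427 kb. In order these are Mmp13, Mmp12, Mmp1b, Mmp3, Mmp10, Mmp8, Mmp27, Mmp20 and Mmp7. The 3 genes of this group with the most UMIs had different leading classes. Mmp3 was highest in fibroblasts, Mmp13 in macrophages and Mmp12 in dendritic cells, while their neighbour Mmp8 was highest in neutrophils. Macrophages nevertheless carried both Mmp12 (102 CPM) and Mmp13 (56.0 CPM). Both were among the leading genes of the same macrophage cluster, described below. In Control, Mmp12 was higher in that cluster than in dendritic cells. The sequences before the start sites of these 4 neighbours are shown because their leading cell classes differed. Each line gives the 250 bases before the start site on the plus strand, 5′ to 3′, from RefSeq promoters on GRCm38.p6 (the assembly of mm10), with the AP-1 letters TGAGTCA or their reverse complement TGACTCA in capitals. AP-1 is the transcription factor formed by Fos and Jun proteins. The windows are chr9:7272264-7272513 for Mmp13, chr9:7347124-7347373 for the second of 2 listed Mmp12 starts, chr9:7445572-7445821 for Mmp3 and chr9:7558179-7558428 for Mmp8.
Mmp13: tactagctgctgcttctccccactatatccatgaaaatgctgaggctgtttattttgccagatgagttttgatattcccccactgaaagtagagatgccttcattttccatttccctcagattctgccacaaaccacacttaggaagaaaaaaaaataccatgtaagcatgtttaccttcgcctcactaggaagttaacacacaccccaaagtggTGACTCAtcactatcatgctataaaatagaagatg
Mmp12: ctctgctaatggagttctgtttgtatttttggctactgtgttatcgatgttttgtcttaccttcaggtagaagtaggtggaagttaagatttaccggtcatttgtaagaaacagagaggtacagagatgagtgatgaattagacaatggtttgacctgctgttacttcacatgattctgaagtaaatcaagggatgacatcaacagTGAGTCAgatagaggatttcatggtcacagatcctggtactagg
Mmp3: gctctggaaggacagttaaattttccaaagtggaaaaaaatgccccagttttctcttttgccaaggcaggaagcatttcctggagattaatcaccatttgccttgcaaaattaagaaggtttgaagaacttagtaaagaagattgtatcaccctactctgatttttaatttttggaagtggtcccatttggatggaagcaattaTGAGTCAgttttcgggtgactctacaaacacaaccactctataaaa
Mmp8: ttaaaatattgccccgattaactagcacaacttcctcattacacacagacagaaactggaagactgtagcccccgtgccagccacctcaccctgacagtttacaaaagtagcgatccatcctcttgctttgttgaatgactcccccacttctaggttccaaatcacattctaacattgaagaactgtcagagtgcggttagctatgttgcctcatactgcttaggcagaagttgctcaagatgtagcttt

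The AP-1 letters begin 35 bases before the start in Mmp13, 44 in Mmp12 and 46 in Mmp3, and do not occur in the window of Mmp8. They also do not occur in the window of the other Mmp12 start, at chr9:7344147-7344446, which lies at the start of the annotated gene. Promoter windows of 300 bases (250 before and 50 after the start) were searched on both strands for 44 of the members that have an entry. The letters occurred in 8 members, which were Mmp3, Mmp7, Mmp10, Mmp12, Mmp13, Mmp1b, Adam19 and Adam29, and in 5.20% of all 32851 promoters. Of the 9 chromosome 9 neighbours, 6 hold them. FoxO letters (TGTTTAC or GTAAACA) occurred in 5 members, which were Mmp10, Mmp13, Adam8, Adam19 and Adamts13, and in 3.65% of all promoters. Since 3 of the 6 neighbours with AP-1 letters (Mmp1b, Mmp7 and Mmp10) had 8 UMIs or fewer, the letters were shared by abundant and by nearly silent genes.

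**Figure D1:**
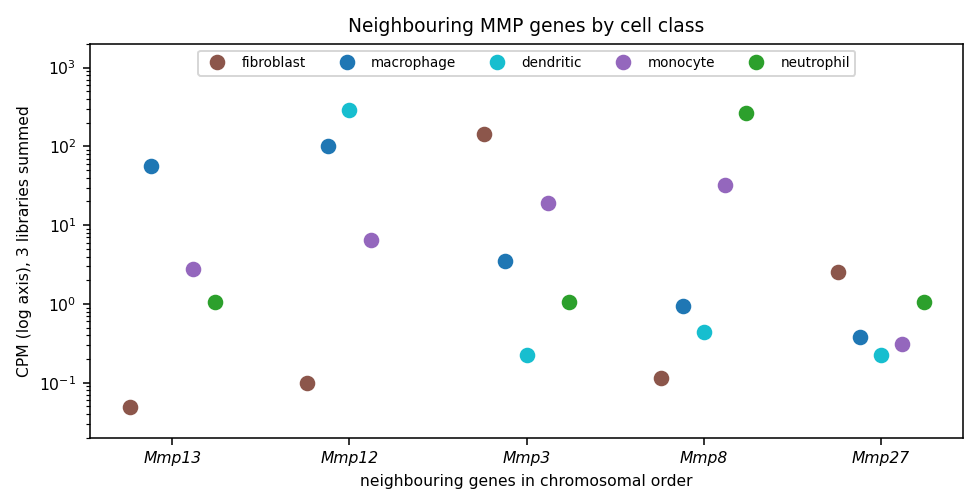
CPM on a log axis of Mmp13, Mmp12, Mmp3, Mmp8 and Mmp27 in fibroblasts, macrophages, dendritic cells, monocytes and neutrophils, over the 3 libraries together, with 1 point per class and values of 0 left undrawn. Mmp3 and Mmp27 peak in fibroblasts (143 and 2.51 CPM), Mmp13 in macrophages (56.0 CPM), Mmp12 in dendritic cells (292 CPM) and Mmp8 in neutrophils (266 CPM).

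Mmp13, a collagenase that cuts fibrillar collagen, had 56.0 CPM in macrophages (95% interval 53.5 to 58.6), 2.79 CPM in monocytes and 0.0495 CPM in fibroblasts. Mmp12, the macrophage elastase, had 292 CPM in dendritic cells (276 to 308), 102 CPM in macrophages and 0.0990 CPM in fibroblasts. Mmp3, or stromelysin 1, which cuts proteoglycans and activates other proenzymes, had 143 CPM in fibroblasts (141 to 144) and 3.49 CPM in macrophages. Each of these 3 genes was thus low or nearly absent in cells in which a neighbour on the same stretch was abundant. Mmp8, the neutrophil collagenase, had 266 CPM in neutrophils (234 to 301) and 32.8 CPM in monocytes. Mmp10, or stromelysin 2, had 8 UMIs in all, from 2 cells of HFpEF-scr. Mmp12 RNA was held by few cells, since 547 of 44178 kept cells carried all 4928 UMIs.

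Among the gelatinases, which cut denatured collagen and basement membrane collagen, the leading classes differed. Mmp2 had 554 CPM in fibroblasts, which held 92.8% of its UMIs, and 279 CPM in Schwann cells. Mmp9 had 939 CPM in neutrophils (878 to 1003), 46.4 CPM in macrophages and 0.0346 CPM in fibroblasts. Mmp14, the membrane-bound activator of pro-Mmp2, had overlapping levels in Schwann cells (94.6 CPM, 80.0 to 111) and fibroblasts (91.6 CPM, 90.3 to 92.9). Mmp15, another membrane-type enzyme, was shared by Schwann cells (108 CPM, 92.4 to 126) and endothelial cells (98.4 CPM, 93.7 to 103), whose intervals overlap. Mmp23, anchored in the membrane in its immature form, was highest in mesothelial cells (366 CPM) and next in fibroblasts (194 CPM).

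The ADAM enzymes were spread more widely. Adam10, the sheddase of Notch, had 369 CPM in lymphatic endothelial cells, 199 CPM in endocardial cells and 59.0 CPM in fibroblasts. Adam17, which releases tumour necrosis factor, had 87.6 CPM in Schwann cells, 73.0 CPM in macrophages and 61.4 CPM in fibroblasts, a far flatter pattern. Adam15 was highest in endothelial cells (189 CPM), followed by macrophages (143 CPM). Adam8, a leukocyte sheddase, was highest in neutrophils (439 CPM) and next in dendritic cells (91.1 CPM). Adam23 and Adam11, which lack proteinase activity, marked Schwann cells. Adam23 had 626 CPM in Schwann cells and 11.9 CPM in mesothelial cells, the next class, and Adam11 had 155 CPM in Schwann cells and 14.0 CPM in smooth muscle cells.

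Several ADAMTS genes marked fibroblasts. Adamts5, an aggrecanase and versicanase, had 979.6 CPM there (92.0% of its UMIs) and Adamts2, which removes the amino-terminal propeptide of procollagen, had 189 CPM. Adamts1, a versicanase and the chromosome 16 neighbour of Adamts5, was highest in endocardial cells (328 CPM). Adamts9, another versican-cutting enzyme, was highest in endothelial cells (66.8 CPM) and next in lymphatic endothelial cells (24.8 CPM). Adamts15 was close in fibroblasts (28.2 CPM, 27.4 to 28.9) and smooth muscle cells (23.2 CPM, 20.5 to 26.2). Its neighbour on chromosome 9, Adamts8, had overlapping levels in smooth muscle cells (15.6 CPM, 13.4 to 18.1) and Schwann cells (15.3 CPM, 9.83 to 22.8). Endocardial cells were close to these at 14.9 CPM.

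Some less abundant members also had a clear leading class. Adam33 had 124 CPM in mesothelial cells (112 to 137) and 22.4 CPM in macrophages, the next class. Adamts20 was highest in Schwann cells (15.3 CPM), Adamts4 in pericytes (14.5 CPM, against 8.82 CPM in fibroblasts) and Adamts19 in fibroblasts (8.65 CPM). Fibroblasts also led for Adamts10 (74.2 CPM), Mmp16 (15.1 CPM) and, with intervals that overlap those of the next class, for Adam9 (99.9 CPM), Mmp19 (22.6 CPM), Mmp11 (17.4 CPM) and Adamts3 (1.91 CPM).

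For the remaining members with at least 100 UMIs the interval of the leading class overlapped that of the next. Schwann cells led for Adam19 (71.6 CPM), Adamts12 (40.9 CPM), Mmp17 (36.4 CPM), Adam22 (21.1 CPM), Adamts7 (11.5 CPM) and Mmp28 (5.11 CPM). Pericytes led for Adam5 (2.00 CPM), lymphatic endothelial cells for Adam12 (11.3 CPM), smooth muscle cells for Adamts6 (17.7 CPM) and T cells for Adamts14 (7.72 CPM). Adam4 in lymphatic endothelial cells (1.88 CPM) and Adam30 in neutrophils (1.06 CPM) were near the floor everywhere.

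The inhibitors each had their own leading class. Timp3, which binds to the extracellular matrix, had 3582 CPM in lymphatic endothelial cells, 1417 CPM in endocardial cells, 1019 CPM in fibroblasts and 27.7 CPM in macrophages. Timp2, which also takes part in the activation of pro-Mmp2, had 2691 CPM in mesothelial cells, 1042 CPM in fibroblasts and 744 CPM in macrophages. Timp4, known from heart, had 243 CPM in endothelial cells (235 to 250) and 14.5 CPM in smooth muscle cells. Timp1, the inhibitor most known for induction by injury, had 126 CPM in fibroblasts (124 to 127) and 94.2 CPM in mesothelial cells (83.8 to 106). Reck had 76.6 CPM in endocardial cells (71.2 to 82.3) and 60.6 CPM in fibroblasts (59.6 to 61.7). Macrophages thus carried Timp2 but little Timp3, Timp1 or Reck.

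Of the 49 members with at least 100 UMIs, 14 were highest in fibroblasts, 12 in Schwann cells, 4 in lymphatic endothelial cells, 4 in neutrophils and the other 15 in 8 further classes. The leading class was the same in all 3 libraries for 29 of 49 members, and its interval lay apart from that of the next class for 28. RNA of fibroblasts occurred in some other classes. The summed level of 20 fibroblast markers was 12283 CPM in Schwann cells, 13017 CPM in pericytes and 13266 CPM in neutrophils, against 45507 to 64390 CPM in the fibroblast clusters and 224 CPM in T cells, and its part in these levels was not tested. In T cells Mmp2 lay at 5.63 CPM, Adamts5 at 6.47 CPM and Mmp3 at 0.417 CPM. The cells named erythroid carried so much fibroblast RNA that they were left out of the order of classes.

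**Figure D2:**
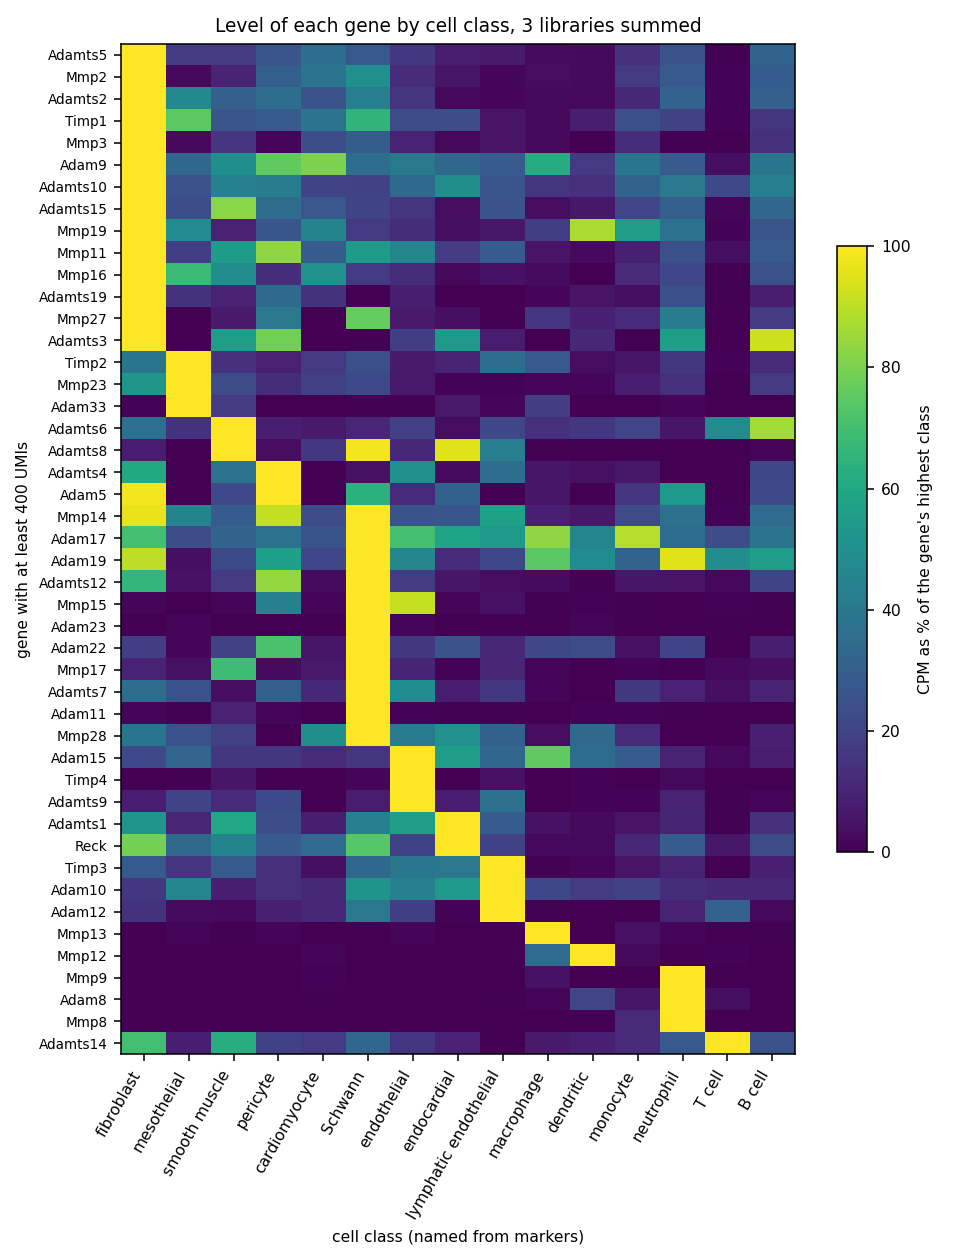
Level of 46 members with at least 400 UMIs in 15 cell classes, each square giving a gene's CPM as a percent of its highest class, over the 3 libraries together. Fibroblasts hold the peaks of Mmp2, Mmp3, Adamts2 and Adamts5, neutrophils those of Mmp8, Mmp9 and Adam8, and Schwann cells those of Adam11 and Adam23.

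Fibroblasts were not uniform. Mmp3 had 361 CPM in the cluster led by Aox3 and Inmt and 35.4 CPM in the one led by Stmn4 and Duox1, a 10.2-fold range over 7 clusters, and it was among the leading genes of the Aox3 cluster without a part in the clustering. Adamts5 ran the other way, with 1482 CPM in the Stmn4 cluster and 70.7 CPM in the cluster led by Wif1 and Prss35. The Wif1 cluster stood out by Timp3 (2779 CPM, against a lowest cluster of 506 CPM) and Adamts19 (39.7 CPM), and the Stmn4 cluster by Timp2 (1665 CPM, against 746 CPM). Timp1 was highest in the cluster led by Cilp and Dio2, at 299.6 CPM, and lowest in the one led by Dpep1 and Msc, at 51.2 CPM. High Mmp3 RNA also sat in few cells, as the 1% of kept cells with the most Mmp3 held 44.4% of its UMIs, while the same share was 45.4% for Timp1 and 6.24% for Mmp2.

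HFpEF-scr over Control reads the disease diet, together with a scrambled vector, against the standard diet, and HFpEF-FoxO1-sh over HFpEF-scr sets the hairpin against FoxO1 beside the scrambled one. A member was called higher or lower with at least 20 UMIs over both libraries, a CPM ratio of at least 1.5 either way and a 95% interval that excludes 1. Over all kept cells, 8 of 52 measured members passed in HFpEF-scr over Control, 4 higher and 4 lower, beside 5.71% of all 16827 measured genes (2.49% higher and 3.22% lower). In HFpEF-FoxO1-sh over HFpEF-scr, 3 of 53 passed, 2 higher and 1 lower, beside 5.62% of genes (2.77% higher and 2.85% lower). The median log2 ratio of the members was 0.03 in the first and -0.03 in the second comparison, against -0.02 and 0.04 over all measured genes. Sums over all kept cells mix the share of a cell class with the level within it, and these cannot be told apart there.

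Mmp3 passed the rule in both comparisons. It had 108 CPM in HFpEF-FoxO1-sh (12793 UMIs), 71.2 CPM in HFpEF-scr (7363 UMIs) and 109.9 CPM in Control (10563 UMIs). The ratio was 0.648 (0.629 to 0.668) for HFpEF-scr over Control and 1.52 (1.47 to 1.56) for HFpEF-FoxO1-sh over HFpEF-scr. HFpEF-scr was thus the low library, and the library labelled HFpEF-FoxO1-sh stood near Control. Adamts15 had 18.3, 16.9 and 26.3 CPM in HFpEF-FoxO1-sh, HFpEF-scr and Control, a ratio of 0.641 (0.603 to 0.681) for HFpEF-scr over Control, so both HFpEF libraries were low.

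No inhibitor passed the rule over all kept cells in either comparison. Timp1 had 123, 92.9 and 81.4 CPM and Timp4 had 12.0, 16.6 and 17.6 CPM in HFpEF-FoxO1-sh, HFpEF-scr and Control. Timp2 had 909, 832 and 828 CPM, Timp3 875, 913 and 1007 CPM and Reck 45.6, 47.8 and 44.1 CPM in the same libraries. Timp1 was highest and Timp4 lowest in the library labelled HFpEF-FoxO1-sh.

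Of the members led by leukocytes, Mmp8, Mmp12 and Adam8 were highest in HFpEF-scr, while Mmp9 (9.05, 6.65 and 8.36 CPM in HFpEF-FoxO1-sh, HFpEF-scr and Control) was lowest there and Mmp13 (6.47, 6.21 and 5.89 CPM) was highest in the library labelled HFpEF-FoxO1-sh. Mmp8 had 0.912 CPM in HFpEF-FoxO1-sh, 2.44 CPM in HFpEF-scr and 0.749 CPM in Control, with ratios of 3.25 (2.50 to 4.29) and 0.374 (0.296 to 0.471) in the same order of comparisons. With at most 10% mitochondrial UMIs the second ratio was 0.161. Mmp12 had 16.7, 20.0 and 9.12 CPM in HFpEF-FoxO1-sh, HFpEF-scr and Control, and its ratio for HFpEF-scr over Control was 2.19 (2.02 to 2.38). Adam8 had 4.26, 5.90 and 3.20 CPM in the same libraries, and its ratio was 1.84 (1.60 to 2.12). The number of kept cells also differed between libraries, with 82, 277 and 112 monocytes and 107, 96 and 41 neutrophils in HFpEF-FoxO1-sh, HFpEF-scr and Control. The other members past the rule were Adam5 (higher), Adam33 and Adam32 (both lower) in HFpEF-scr over Control, and Adamts20 (higher, 1.57) in HFpEF-FoxO1-sh over HFpEF-scr. Adam5 and Adam32 lie beside the far more abundant Adam9 on the same strand of chromosome 8, with 435, 91 and 25646 UMIs.

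In fibroblasts, 7 of 47 measured members passed the rule in HFpEF-scr over Control, 2 higher and 5 lower, beside 3.71% of 14961 genes (1.72% higher and 1.99% lower). Only Adam12 passed in HFpEF-FoxO1-sh over HFpEF-scr, 1 of 47 members, and it was lower, beside 4.05% of genes (1.75% higher and 2.3% lower). Median log2 ratios of the members were 0.01 and -0.01. Adamts15 had 25.3 CPM in HFpEF-FoxO1-sh, 23.8 CPM in HFpEF-scr and 36.4 CPM in Control, which gave HFpEF-scr over Control a ratio of 0.653 (0.612 to 0.698). Both HFpEF libraries lay below Control. With at most 10% mitochondrial UMIs the ratio was 0.828, and 0 members passed in HFpEF-scr over Control in fibroblasts.

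The other lower members were low in level, as their ratios and their UMIs in HFpEF-scr against Control show. They were Adam33, a smooth muscle and mesenchymal sheddase (0.557, 54 against 93 UMIs), Timp4 (0.573, 43 against 72 UMIs), Adam32 (0.508, 18 against 34 UMIs) and Adam11 (0.660, 110.0 against 160.0 UMIs). Over the libraries together Timp4 had 0.916 CPM in fibroblasts, against 243 CPM in endothelial cells. Endothelial markers summed to 53.4 to 348 CPM across the fibroblast clusters, and the part of endothelial RNA in the Timp4 values was not tested. Adam5 (1.62, 154 against 91 UMIs) and Adamts17 (2.72, 17 against 6 UMIs) were higher in HFpEF-scr, and Adamts17 no longer passed without its highest cells (2.88, 0.995 to 10.1). Adam12, a sheddase known from activated stromal cells, had 1.32 CPM in HFpEF-FoxO1-sh, 2.17 CPM in HFpEF-scr and 1.51 CPM in Control, with a ratio of 0.605 (0.464 to 0.788) for HFpEF-FoxO1-sh over HFpEF-scr. HFpEF-scr was the high library for Adam12, whose ratio was 0.668 and no longer passed at a finer clustering (resolution 2).

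Mmp3 in fibroblasts missed the size of 1.5 narrowly, at 158 CPM in HFpEF-FoxO1-sh, 107 CPM in HFpEF-scr and 159.9 CPM in Control. The ratios of Mmp3 were 0.671 (0.650 to 0.692) for HFpEF-scr over Control and 1.47 (1.43 to 1.52) for HFpEF-FoxO1-sh over HFpEF-scr. Of fibroblasts, 1735, 1267 and 1337 cells carried an Mmp3 UMI, with 7.07, 5.38 and 7.29 UMIs per such cell in HFpEF-FoxO1-sh, HFpEF-scr and Control. The low place of HFpEF-scr held inside clusters, while the order of the other libraries varied. In 7 of 7 fibroblast clusters Mmp3 lay below Control in HFpEF-scr (ratios 0.630 to 0.967) and in 7 of 7 it was higher in the library labelled HFpEF-FoxO1-sh than in HFpEF-scr (1.07 to 2.00). The Aox3 cluster, where Mmp3 was highest, had the flattest ratios, at 372, 348 and 359.9 CPM in HFpEF-FoxO1-sh, HFpEF-scr and Control. In the Cilp cluster the values were 113, 56.3 and 87.4 CPM. The Aox3 cluster held 1322 of the 10668 fibroblasts in HFpEF-FoxO1-sh, 1208 of 9330 in HFpEF-scr and 1703 of 8481 in Control, so its share was largest in Control. Values over all fibroblasts therefore mix the share of a cluster with the level inside it. Clusters share the same libraries and are not replicates.

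Adamts15, also highest in the Aox3 cluster (53.1 CPM, against 8.54 CPM in the Cilp cluster), lay below Control in HFpEF-scr in 7 of 7 fibroblast clusters (0.565 to 0.981). Its class ratio of 0.653 is subject to the same difference in cluster shares. Mmp2 went the other way by a smaller margin, with 528 CPM in HFpEF-FoxO1-sh, 619 CPM in HFpEF-scr and 519 CPM in Control. Its ratios were 1.19 (1.18 to 1.21) and 0.852 (0.841 to 0.864), with HFpEF-scr above Control in 7 of 7 clusters. Mmp3 and Mmp2, both made by fibroblasts, therefore stood in opposite order in HFpEF-scr. Adamts5 had 1069, 986 and 859 CPM and Adamts1 198, 148 and 160.3 CPM in HFpEF-FoxO1-sh, HFpEF-scr and Control. The Stmn4 cluster, highest in Adamts5, held 2153, 1734 and 1146 fibroblasts in the same libraries, a share that had the same order as the Adamts5 level, and its part was not tested.

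The inhibitors other than Timp4 differed little between the fibroblasts of the libraries. Timp1 had 142, 117 and 115 CPM and Timp2 1092, 1045 and 977 CPM in HFpEF-FoxO1-sh, HFpEF-scr and Control. Timp3 had 976, 989 and 1103 CPM and Reck 60.2, 64.6 and 57.0 CPM in the same libraries. All 8 ratios of these inhibitors lay between 0.897 and 1.22. An unnamed cluster rich in Timp1 and in fibroblast markers, described at the end, is not part of these values. Within the Cilp cluster Timp1 had 456 CPM in HFpEF-FoxO1-sh, 219.7 CPM in HFpEF-scr and 247 CPM in Control, while in the Dpep1 cluster it had 55.9, 59.5 and 34.1 CPM, so the high library was not the same across clusters.

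Immediate early and heat shock RNA and the mitochondrial share differed between the fibroblasts of the libraries as well. The summed level of 16 immediate early and heat shock genes in fibroblasts was 10627 CPM in HFpEF-FoxO1-sh, 8337 CPM in HFpEF-scr and 8480 CPM in Control. The median mitochondrial share of the fibroblasts was 8.67%, 12.2% and 12.5% in the same order. Of these 16 genes, 4 were higher and 0 lower in HFpEF-FoxO1-sh over HFpEF-scr, beside 1.75% and 2.3% of all genes, with Atf3 at 73.4 against 42.9 CPM. Their part in the values of Mmp3 and Adamts1 was not tested.

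**Figure D3:**
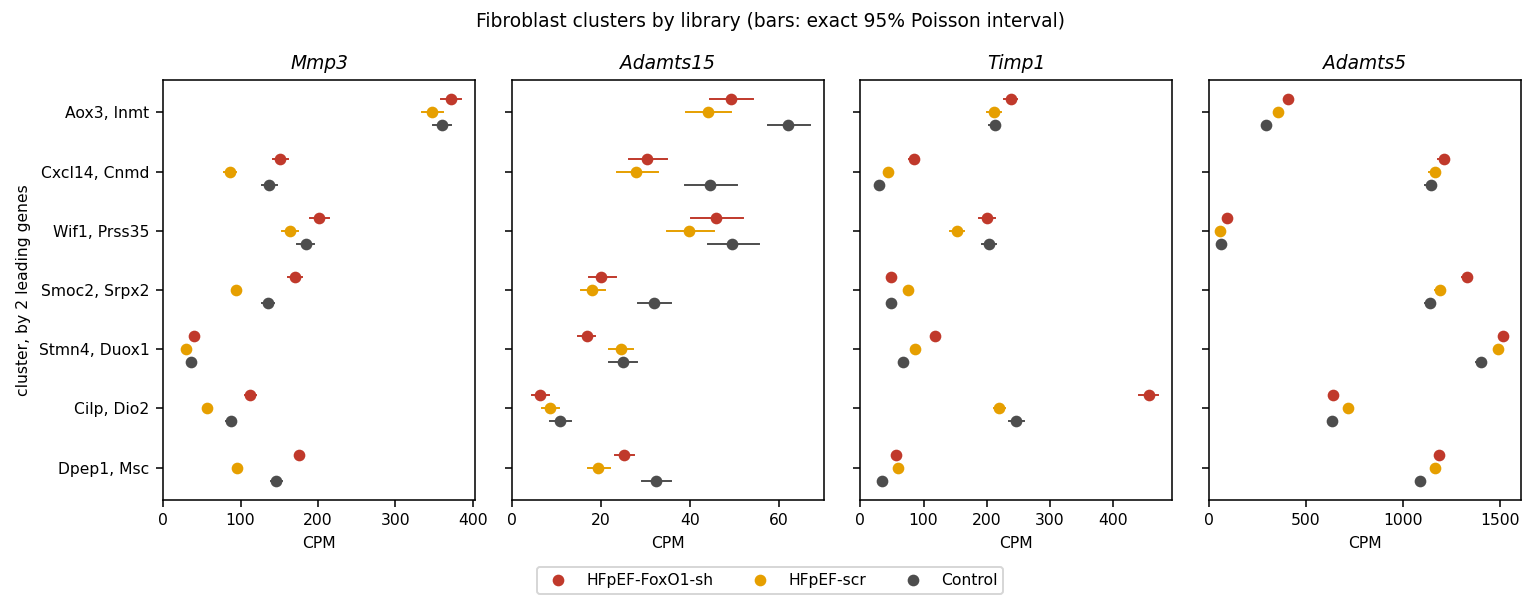
CPM of Mmp3, Adamts15, Timp1 and Adamts5 in the 7 fibroblast clusters, each named by leading genes, with a point per library (HFpEF-FoxO1-sh, HFpEF-scr, Control from top to bottom within a cluster) and bars for 95% Poisson intervals. Mmp3 and Adamts15 are lower in HFpEF-scr than in Control in every cluster, and Timp1 has its highest value, 456 CPM, in HFpEF-FoxO1-sh in the Cilp cluster.

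In macrophages, 8 of 31 measured members passed in HFpEF-scr over Control, 3 higher and 5 lower, beside 4.69% of 12030 genes (2.13% higher and 2.56% lower). In HFpEF-FoxO1-sh over HFpEF-scr, 3 of 29 passed, 1 higher and 2 lower, beside 4.82% of genes (1.72% higher and 3.1% lower). Without the highest cell of each member in each library, a setting chosen after seeing the data, 4 of the 8 and 3 of the 3 still passed. Median log2 ratios of the members were -0.11 and -0.19, against -0.03 and 0.03 over all genes.

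Mmp9 had 49.7 CPM in HFpEF-FoxO1-sh (696 UMIs), 25.1 CPM in HFpEF-scr (279 UMIs) and 68.7 CPM in Control (594 UMIs). The ratios were 0.365 (0.315 to 0.422) for HFpEF-scr over Control and 1.98 (1.72 to 2.29) for HFpEF-FoxO1-sh over HFpEF-scr, so HFpEF-scr was the low library. With at most 10% mitochondrial UMIs the ratios were 0.180 and 3.76. Most of it (660, 237 and 559 UMIs) came from the cluster led by Folr2 and Ccl24, genes of resident macrophages, at 75.5, 38.5 and 102 CPM in HFpEF-FoxO1-sh, HFpEF-scr and Control. Another cluster, here called the H2-Eb1 cluster, was led by Mmp12 and then by H2-Eb1 and H2-Ab1. The H2 genes code for antigen-presenting MHC class II chains, and Mmp9 had 1.93, 9.07 and 8.92 CPM in this cluster. The order of HFpEF-FoxO1-sh and HFpEF-scr was thus opposite in the 2 clusters.

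Mmp12 had 105 CPM in HFpEF-FoxO1-sh, 120.5 CPM in HFpEF-scr and 72.5 CPM in Control, a ratio of 1.66 (1.51 to 1.83) for HFpEF-scr over Control. Mmp12 and Mmp13 are among the leading genes of the H2-Eb1 cluster, although neither was used in the clustering. Mmp12 had 227, 271 and 218 CPM there in HFpEF-FoxO1-sh, HFpEF-scr and Control, and a ratio of 1.24 for HFpEF-scr over Control. In the Folr2 cluster it had 42.9, 11.2 and 4.76 CPM, highest in the library labelled HFpEF-FoxO1-sh. Mmp13 had 103, 66.4 and 119.7 CPM in the H2-Eb1 cluster, lowest in HFpEF-scr, although the class as a whole was nearly level at 53.2, 53.5 and 63.8 CPM. Inside the H2-Eb1 cluster, HFpEF-scr was therefore the high library for Mmp12 and the low library for Mmp13. Both genes were also among the leading genes of a cluster of 152 cells led by Stmn1 and Fcgr4. Its median doublet score was 0.283.

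Adam8 had 6.93 CPM in HFpEF-FoxO1-sh, 11.9 CPM in HFpEF-scr and 3.93 CPM in Control (97, 132 and 34 UMIs). Its ratios were 3.02 (2.06 to 4.54) and 0.584 (0.445 to 0.765), and in the H2-Eb1 cluster it had 12.2, 25.4 and 11.2 CPM. HFpEF-scr was high in both views, although the second ratio was 0.277 with at most 10% mitochondrial UMIs and 0.934 with at most 50%. The summed neutrophil markers in macrophages (neutrophils being the class highest in Adam8) were highest in HFpEF-scr as well, at 35.2, 223 and 58.6 CPM in HFpEF-FoxO1-sh, HFpEF-scr and Control, and their part was not tested.

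Timp1 had 25, 56 and 19 UMIs in macrophages of HFpEF-FoxO1-sh, HFpEF-scr and Control, with ratios of 2.29 (1.34 to 4.08) and 0.355 (0.212 to 0.579). Of these, 9, 37 and 6 UMIs came from a cluster of 152 cells led by Stmn1 and Fcgr4 with fibroblast markers at 27049 CPM and a median doublet score of 0.283. Without clusters of a high doublet score, the ratios were 1.13 and 0.663. The other lower members in HFpEF-scr over Control were Adam23, Adamts4, Adamts15 and Mmp3, each with 28 UMIs or fewer in HFpEF-scr. Timp2, the main inhibitor of macrophages, had 787, 678 and 759 CPM in HFpEF-FoxO1-sh, HFpEF-scr and Control, and Timp3 had 21.1, 29.8 and 35.6 CPM. Reck lay at 1.71, 2.07 and 2.08 CPM, and Timp4 had 4 UMIs or fewer in each library.

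**Figure D4:**
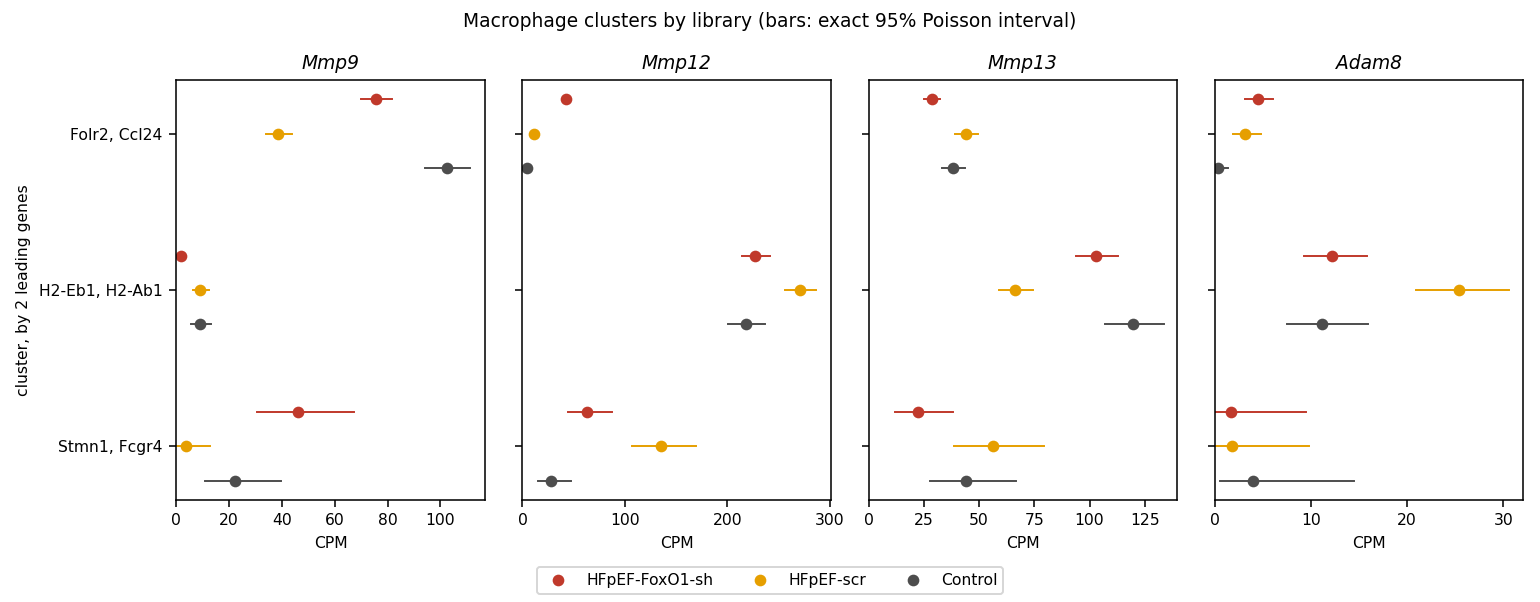
CPM of Mmp9, Mmp12, Mmp13 and Adam8 in the 3 macrophage clusters, with a point per library (HFpEF-FoxO1-sh, HFpEF-scr, Control from top to bottom within a cluster) and bars for 95% Poisson intervals. Mmp9 lies in the Folr2 cluster (38.5 to 102 CPM), while Mmp12 (218 to 271 CPM) and Mmp13 (66.4 to 119.7 CPM) lie mainly in the H2-Eb1 cluster.

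In endothelial cells, 3 of 34 measured members passed in HFpEF-scr over Control, 2 higher and 1 lower, beside 5.17% of 12072 genes (1.88% higher and 3.29% lower). In HFpEF-FoxO1-sh over HFpEF-scr, 5 of 33 passed, 4 higher and 1 lower, beside 6.77% of genes (4.36% higher and 2.41% lower). Adamts9 had 53.9 CPM in HFpEF-FoxO1-sh, 84.7 CPM in HFpEF-scr and 55.3 CPM in Control, from 269, 579 and 277 UMIs. Its ratios were 1.53 (1.32 to 1.77) and 0.636 (0.549 to 0.737), and HFpEF-scr was the high library. With at most 50% mitochondrial UMIs the ratios were 1.49 and 0.717, which do not pass. The cluster led by C1qtnf9 and Fabp4, with fibroblast markers at only 518 CPM, gave the same picture at 67.7, 105 and 70.0 CPM.

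Timp1 in endothelial cells had 54.1, 22.8 and 12.4 CPM in HFpEF-FoxO1-sh, HFpEF-scr and Control, with ratios of 1.84 (1.36 to 2.51) and 2.37 (1.94 to 2.91). A single cell held 219 of the 270 UMIs of HFpEF-FoxO1-sh. Without the highest cell of each library the ratios were 1.48 (1.05 to 2.10), which no longer passes, and 0.653 (0.458 to 0.920), so the direction of the second rested on 1 cell. Timp1 and Mmp3 UMIs came almost wholly from the cluster led by Sema3g and Sox17, whose fibroblast markers summed to 14566 CPM, and the part of that RNA was not tested. Timp4, the inhibitor typical of these cells, had 237, 218 and 282 CPM in HFpEF-FoxO1-sh, HFpEF-scr and Control, with a ratio of 0.774 (0.719 to 0.833) for HFpEF-scr over Control. It was below Control in both HFpEF libraries, by less than 1.5.

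The remaining endothelial inhibitors differed by less than 1.5. Timp3 had 1361, 1533 and 1257 CPM and Timp2 had 223, 160.5 and 196 CPM in HFpEF-FoxO1-sh, HFpEF-scr and Control. Reck had 17.4, 14.0 and 13.2 CPM. The other endothelial members past the rule rested on few UMIs. Adamts12 was lower in HFpEF-scr, against Control (0.451, 0.281 to 0.713), and Mmp11 (1.63), Mmp3 (1.65) and Adamts6 (2.31) were higher in HFpEF-FoxO1-sh than in HFpEF-scr, with 27 to 94 UMIs in HFpEF-FoxO1-sh.

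In smooth muscle cells, 4 of 31 measured members passed in HFpEF-scr over Control, all of them lower, beside 5.08% of 11201 genes (2.52% higher and 2.56% lower). In HFpEF-FoxO1-sh over HFpEF-scr, 5 of 31 passed, 4 higher and 1 lower, beside 5.41% of genes (2.06% higher and 3.35% lower). Timp4 had 18.1 CPM in HFpEF-FoxO1-sh, 7.84 CPM in HFpEF-scr and 17.1 CPM in Control (64, 28 and 71 UMIs). Its ratios were 0.458 (0.285 to 0.719) and 2.31 (1.46 to 3.74), and HFpEF-scr was the low library.

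Mmp3 in smooth muscle cells had the same order at 20.1, 10.6 and 34.7 CPM in HFpEF-FoxO1-sh, HFpEF-scr and Control, with ratios of 0.306 (0.208 to 0.441) and 1.89 (1.26 to 2.88). Single cells held up to 34, 6 and 48 of its UMIs, and without the highest cells the second ratio was 1.17 (0.709 to 1.94). Adam33 (19.3, 16.0 and 26.5 CPM in HFpEF-FoxO1-sh, HFpEF-scr and Control) and Adamts6 (16.4, 12.6 and 23.1 CPM) were the other lower members in HFpEF-scr over Control. Of the other members past the rule in HFpEF-FoxO1-sh over HFpEF-scr, Adamts8 (1.67) and Mmp2 (0.657) no longer passed without their highest cells, at 1.12 and 0.715, and Adam11 (1.64) still did. Timp3, at 1010.0, 995 and 1024 CPM, and Timp2, at 366, 416 and 383 CPM in HFpEF-FoxO1-sh, HFpEF-scr and Control, were nearly level. Timp1 had 36.3, 34.4 and 29.4 CPM and Reck 32.6, 38.9 and 32.8 CPM. Erythroid markers in these cells summed to 4942, 17562 and 9511 CPM in HFpEF-FoxO1-sh, HFpEF-scr and Control. Fibroblast markers summed to 6767, 7990 and 8366 CPM in the same libraries. Endothelial markers summed to 582 CPM over the libraries together, endothelial cells being the class highest in Timp4. The part of any of these RNAs in the values, those of Mmp3 and Timp4 included, was not tested.

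**Figure D5:**
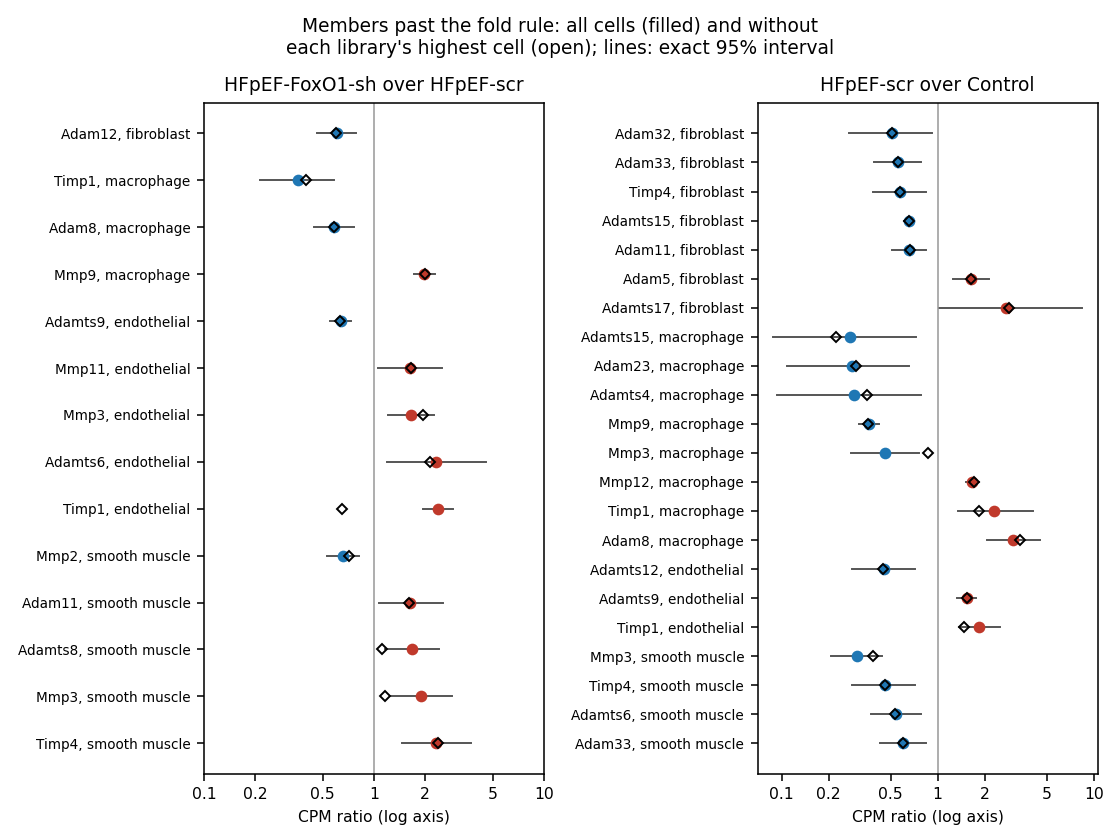
CPM ratios, on a log axis, of the members past the rule in the 4 classes compared in full, with HFpEF-FoxO1-sh over HFpEF-scr on the left and HFpEF-scr over Control on the right. Filled points with 95% intervals use all cells (blue under 1, red over 1) and open diamonds leave out the highest cell of each library, which gives endothelial Timp1 on the left 0.653 in place of 2.37.

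Smaller classes added a few members. Mmp12 in dendritic cells had 332 CPM in HFpEF-FoxO1-sh, 366 CPM in HFpEF-scr and 167 CPM in Control, with a ratio of 2.19 (1.89 to 2.55) for HFpEF-scr over Control, and 1 cell held 228 of the 631 UMIs of HFpEF-scr. In endocardial cells Adamts5 had 86.5, 92.8 and 56.4 CPM in the same libraries, a ratio of 1.65 (1.37 to 1.98), so both HFpEF libraries were high. Fibroblast markers in these endocardial cells summed to 6493, 5531 and 5091 CPM in HFpEF-FoxO1-sh, HFpEF-scr and Control. The part of fibroblast RNA in these Adamts5 values was not tested. Timp3 in lymphatic endothelial cells was level at 3701, 3659.6 and 3403 CPM. Mmp9 in neutrophils had 1237, 785 and 888 CPM and Mmp8 had 255, 298 and 199 CPM in HFpEF-FoxO1-sh, HFpEF-scr and Control, from 107, 96 and 41 cells. RNA typical of fibroblasts differed between these neutrophils, with Adamts5 at 21.5, 320.7 and 419 CPM and Mmp2 at 10.8, 199.9 and 254 CPM in the same libraries, lowest where Mmp9 was highest, and its part was not tested.

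Genes that act with the metalloproteinases were counted by the same rule. In fibroblasts, 1 of 25 genes of plasminogen activation, convertases and partners was higher in HFpEF-scr over Control and none lower, beside 1.72% and 1.99% of all genes. That gene was Lcn2, which binds Mmp9, at 4.20 against 1.95 CPM. Of 19 matrix substrates, 1 was higher and 1 lower in HFpEF-scr over Control, beside the same shares of all genes. In HFpEF-FoxO1-sh over HFpEF-scr 0 were higher and 3 lower, beside 1.75% and 2.3% of all genes, namely aggrecan (Acan, 0.193 against 0.834 CPM), brevican (Bcan) and tenascin C (Tnc, 4.31 against 6.91 CPM). Fibronectin (Fn1) in macrophages had 48.0 CPM in HFpEF-FoxO1-sh, 126 CPM in HFpEF-scr and 52.9 CPM in Control, with ratios of 2.37 (2.13 to 2.64) and 0.382 (0.348 to 0.419), so HFpEF-scr was high, as for Adam8. Of 14 matrix substrates measured in macrophages 2 were higher and 0 lower in HFpEF-scr over Control, beside 2.13% and 2.56% of all genes.

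Of the macrophage genes of plasminogen activation and partners, 3 of 23 were higher and 2 lower in HFpEF-scr over Control, beside 2.13% and 2.56% of all genes. In HFpEF-FoxO1-sh over HFpEF-scr 0 were higher and 3 lower, beside 1.72% and 3.1%. Thbs1, which binds Mmp2 and Mmp9, had 14.8 CPM in HFpEF-FoxO1-sh and 41.2 CPM in HFpEF-scr there (0.359, 0.303 to 0.424). In smooth muscle cells Thbs1 had 177 CPM in HFpEF-FoxO1-sh, 379 CPM in HFpEF-scr and 159 CPM in Control, again with HFpEF-scr high. Among membrane proteins that ADAM enzymes release, 1 of 26 in fibroblasts was higher in HFpEF-scr over Control (Il1r2) and 1 lower (Areg, 0.110 against 0.541 CPM, from 7 and 33 UMIs), beside 1.72% and 1.99% of all genes. Il1r2 is also one of the neutrophil markers used here. Neutrophil markers in fibroblasts summed to 437, 482 and 412 CPM in HFpEF-FoxO1-sh, HFpEF-scr and Control. The part of neutrophil RNA in the Il1r2 value was not tested.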

How the data were processed

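The authors deposited 1 filtered table of UMI counts per library, made with Cell Ranger 6.1.2 against mm10, per the labels and the submitters' processing notes, from 10x 3′ HT v3.1 libraries. The annotation release is not given in the sources used here. Barcodes needed at least 500 UMIs and 300 genes, with no more than 20% of UMIs mitochondrial, and doublets called by Scrublet per library were removed (537, 342 and 182 in HFpEF-FoxO1-sh, HFpEF-scr and Control). Counts were clustered in scanpy 1.11.5 (2000 variable genes without the members, 30 components, 15 neighbours, Leiden resolution 1, no batch correction), and clusters were named from at least 3 markers among their top 50 genes. UMIs were then summed per class and library. Levels carry exact Poisson 95% intervals and ratios exact conditional binomial 95% intervals. UMIs of 1 cell come together, so real errors are wider.

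Every member is accounted for, and the text names each member past the rule in the 4 classes compared in full (up to 10 per class and comparison), the inhibitors there, and the leading class of each member with at least 100 UMIs. The members and lists were chosen with earlier results of these data known. Alternatives changed the filters, clustering, scaling, UMI minimum and cells used. B cells were left uninterpreted because their clusters differed between libraries, and 2 unnamed clusters entered no class.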

Additional observations from a re-analysis of the deposited data

Results flagged for a closer look

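Timp1 stood in opposite directions in 2 classes in HFpEF-FoxO1-sh over HFpEF-scr. Its ratio was 2.37 in endothelial cells (270 against 156 UMIs) and 0.355 in macrophages (25 against 56 UMIs), and the difference between the classes was not tested. In endothelial cells 1 cell held 219 of the UMIs of HFpEF-FoxO1-sh, and in macrophages 37 of the 56 UMIs of HFpEF-scr lay in the cluster with a median doublet score of 0.283.

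Timp1 also had a strong signal in cells that entered no class. An unnamed cluster of 108 cells, led by Cxcl5, Ptx3, Timp1 and Mt2, had 3595 CPM of Timp1 from 3890 UMIs, which is 12.2% of all Timp1 UMIs. The level was 5171 CPM in HFpEF-FoxO1-sh (46 cells), 2642 CPM in HFpEF-scr (50 cells) and 723 CPM in Control (12 cells). Fibroblast markers in this cluster summed to 30315 CPM, against 1261 CPM for macrophage and 137 CPM for endothelial markers. Its cells count in the values over all kept cells but not in those of any class, so the Timp1 values of fibroblasts leave them out.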

How the results depend on the processing

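Of the values recomputed under each alternative, 640 stayed close (a ratio inside the 95% interval of the reported one, a count within 1.5 times), 101 moved by more and 3 turned round, and the cause was not tested. Most moves came from the mitochondrial limit, the measure in which the libraries differed in quality. With at most 10% mitochondrial UMIs, 38 values moved and 28 stayed close. With at most 50%, 30 moved, 2 turned round and 63 stayed close. No paired analysis was possible because each group is 1 library. Counts of members past the rule are given for HFpEF-scr over Control first and HFpEF-FoxO1-sh over HFpEF-scr second, wherever a count moved by over 1.5 times. With at most 10% mitochondrial UMIs, fibroblasts had 0 and 3, all kept cells 13 in the second, macrophages 11 in the second and smooth muscle cells 2 in the first, while endothelial cells were under 50 in a library and gave no value. With at most 50%, all kept cells had 8 and fibroblasts 2 in the second, endothelial cells 6 and 1, and smooth muscle cells 3 in the second. Macrophages had 5 in the first with at least 1000 UMIs per barcode, at resolution 2, with members among the variable genes and without clusters of a high doublet score, 4 without the highest cells and 3 with a minimum of 100 UMIs. Fibroblasts had 2 in the second with at least 1000 UMIs per barcode, members among the variable genes, median-of-ratios scaling or no UMI minimum, and 0 at resolution 2. A minimum of 100 UMIs left 3 in endothelial and 3 in smooth muscle cells in the second. No minimum gave macrophages 5 in the second and endothelial cells 5 in the first. Without the highest cells, smooth muscle cells had 2 in the second. The ratios that turned round were endothelial Timp1, at 0.913 (HFpEF-scr over Control, 50% mitochondrial UMIs) and 0.653 (HFpEF-FoxO1-sh over HFpEF-scr, without the highest cells), and smooth muscle Mmp2, at 1.24 (HFpEF-FoxO1-sh over HFpEF-scr, 50%). Fibroblast Mmp3 ranged from 0.664 to 0.683 and from 1.35 to 1.48, and macrophage Mmp9 from 0.180 to 0.394 and from 1.89 to 3.76. Leaving out highest cells or clusters of a high doublet score was chosen after seeing the data. Ratios on fewer than 100 UMIs are limited by depth.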
